A study of Mus musculus with 2 samples.

Results

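The genes described here are Gli1, Sfrp1, Wnt8b and Rspo2, 1 gene of the Hedgehog pathway and 3 of the Wnt pathway, measured in mouse embryonic cortex at stage E14.5. They were picked by name, with their values already known, from a deposited table of 2381 loci that the authors called different between 2 RNA sequencing libraries. One library came from Trrap-deleted cortex (TrrapF/F NestinCre+), in which Nestin-Cre, active in neural progenitors and their progeny, removes the floxed Trrap gene. The other came from the control (TrrapF/+ NestinCre+), which was entered as wild type but carried 1 floxed allele and the same Cre. Both were on a B6/129 background. Trrap encodes the large scaffold protein of several histone acetyltransferase complexes, and the title of the series asks how its histone acetylation acts on the fate of neural progenitors. There was 1 library per genotype, so no value below has a replicate error and no difference could be tested here. The values are FPKM, in which fragments are scaled by transcript length and sequencing depth, so levels can be compared between genes. A gene is called listed when it has a row of its own in the table, with a value above 0 in both libraries. A locus is called listed when it has any row. A gene that is not listed cannot be called unchanged. Cell numbers were not measured, so in these tissue samples fewer cells of a type and less RNA per cell cannot be told apart.

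Wnt proteins are secreted ligands that bind Frizzled receptors with Lrp co-receptors, and in the canonical branch this stabilises beta-catenin, which then switches on genes together with Tcf and Lef factors. R-spondins strengthen the signal through Lgr receptors by keeping Frizzled at the cell surface, and secreted Frizzled-related proteins bind Wnt ligands outside the cell. Hedgehog ligands bind Patched, which releases Smoothened at the primary cilium and sets the balance of Gli activators and repressors. In the embryonic telencephalon Wnt ligands are made at the cortical hem, the medial edge of the cortex that instructs the hippocampus, while Sonic hedgehog comes from ventral territories.

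Among the 4 genes, the Wnt ligand gene Wnt8b and the R-spondin gene Rspo2 were lower in the Trrap-deleted cortex, and the Wnt-binding gene Sfrp1 and the Hedgehog effector gene Gli1 were higher. Of the 2376 loci with a value above 0 in both libraries, 58.0% were listed higher and 42.0% lower, 25.3% were higher by 2-fold or more and 13.6% lower by 2-fold or more. All 4 genes differed by 2-fold or more, as did 39.0% of those loci in either direction. The genes were chosen from this same contrast, so these shares are given as background and nothing is read from the comparison.

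**Figure D1:**
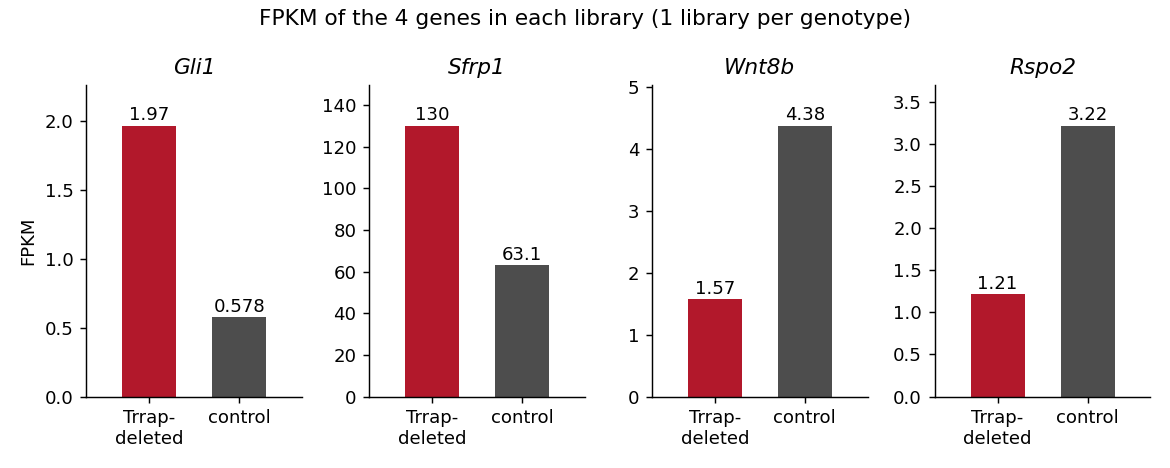
FPKM (vertical axes, each from 0 with its own scale) of Gli1, Sfrp1, Wnt8b and Rspo2 in the Trrap-deleted and the control library, 1 bar per library and so without error bars. Gli1 and Sfrp1 have the taller bar in the Trrap-deleted library (1.97 and 130.1 FPKM), Wnt8b and Rspo2 the shorter one (1.57 and 1.21 FPKM).

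Wnt8b encodes a Wnt ligand known as a marker of the cortical hem and the adjoining hippocampal primordium. Its locus in the table (XLOC_018313) spans chromosome 19, 44567713 to 44591010 on mm9, plus strand, and is 2496 bases longer than the annotated gene, which has 6 exons. Wnt8b had 1.57 FPKM in the Trrap-deleted library, against 4.38 FPKM in the control library. It was thus 2.78-fold lower (log2 fold change -1.48). In the authors' deposited table this row has a p-value of 5.49e-05 and a q-value of 0.00121. Both levels were low, and only 20.3% of loci in the table had a lower mean FPKM. Among the 237 loci of similar level (mean FPKM 2.91 to 5.69), 64 were listed lower, and 16 of these had a larger fold than Wnt8b.

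Rspo2 encodes a secreted R-spondin, of a family that amplifies Wnt signals and is found at the cortical hem in mouse. Its locus (XLOC_013133) covers chromosome 15, 42852357 to 43002429 on mm9, minus strand, and its length is within 40 bases of the annotated gene. Rspo2 had 1.21 FPKM in the Trrap-deleted library, against 3.22 FPKM in the control library. The level was 2.65-fold lower (log2 fold change -1.41), and the authors' deposited table gives a p-value of 3.68e-05 and a q-value of 0.000856. Wnt8b and Rspo2 were therefore lower by much the same factor. The level of Rspo2 was 77.1% of that of Wnt8b in the Trrap-deleted library, against 73.5% in the control library, a ratio that does not depend on how the libraries are scaled. Of the 238 loci of similar level (mean FPKM 1.04 to 2.90), 60 were listed lower, and 26 of these had a larger fold than Rspo2.

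Sfrp1 encodes secreted Frizzled-related protein 1, which carries a cysteine-rich domain like that of Frizzled and can bind Wnt ligands. The locus (XLOC_036061) lies on chromosome 8, 24521974 to 24560104 on mm9, plus strand, has 3 exons and is exactly as long as the annotated gene. Sfrp1 had 130.1 FPKM in the Trrap-deleted library, against 63.1 FPKM in the control library. It was 2.06-fold higher (log2 fold change 1.04), a gain of 66.95 FPKM, while the other 3 genes differed by less than 3 FPKM. The authors' deposited table lists its p-value and q-value at 0, as it does the p-value of 60 rows. Sfrp1 was the most abundant of the 4 genes by far, with a mean FPKM above that of 88.2% of loci. At that level a higher value was the less common direction. Of the 237 loci with a mean FPKM between 52.8 and 112.6, 91 were listed higher and 146 lower, and 5 of the 91 had a larger fold than Sfrp1.

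Gli1 encodes a zinc finger activator that is itself switched on by Hedgehog signalling and is commonly read as its output. Its locus (XLOC_003750) spans chromosome 10, 126759172 to 126778645 on mm9, minus strand. It is 7381 bases longer than the annotated gene, so reads from sequence beside Gli1 may be part of its value. Gli1 had 1.97 FPKM in the Trrap-deleted library, against 0.578 FPKM in the control library. That is 3.41-fold higher (log2 fold change 1.77), at the lowest mean level of the 4 genes. The order of the 4 folds was not stable: as deposited Gli1 had the largest, but relative to the median of all loci, and with a pseudocount of 1, Wnt8b did. The p-value in the authors' deposited table is 4.63e-05 and the q-value 0.00104. Large folds were common among the weak loci listed. Only loci that the authors called different are listed, so weak loci with small folds may be missing. The range of mean FPKM that holds Gli1 is that of Rspo2. Of its 238 loci 178 were listed higher, with 45 of them by a larger fold than Gli1. The median log2 fold change of the 238 was 1.20.

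**Figure D2:**
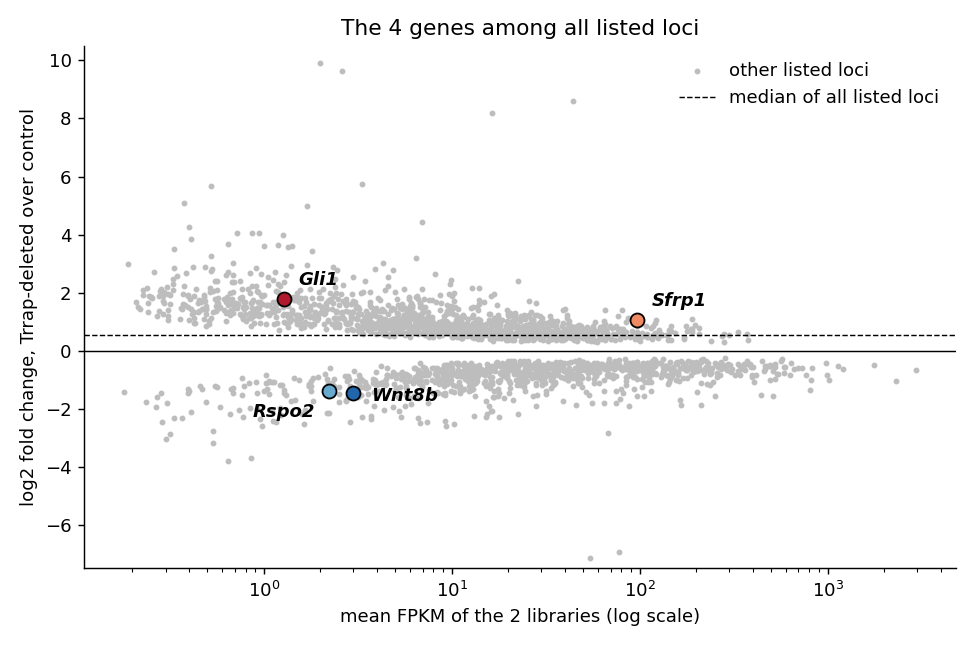
Log2 fold change, Trrap-deleted over control (vertical axis), against mean FPKM of both libraries (horizontal axis, log scale) for the 2376 loci with values in both libraries, 1 point per locus, with the 4 genes marked and the median of all loci dashed at 0.54. Sfrp1 lies at the upper edge of the abundant loci, while Gli1, Wnt8b and Rspo2 lie among the weak ones, where listed folds are wide. Only loci called different are shown.

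The median of all these loci was itself above 0, at a log2 fold change of 0.54 (1.46-fold). Relative to that median Gli1 was higher by 1.22 and Sfrp1 by 0.50 on the log2 scale, and Wnt8b and Rspo2 stood at -2.02 and -1.95. Scaled instead to equal summed FPKM over the table, which was 101177 in the Trrap-deleted and 128624 in the control library, the log2 fold changes were 2.11 for Gli1, 1.39 for Sfrp1, -1.13 for Wnt8b and -1.06 for Rspo2. All 4 genes kept their direction under both scalings, and Sfrp1 was less than 2-fold higher under the first. Both scalings use only loci that the authors called different, so neither is a normalisation over all genes.

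Of the 19 Wnt ligand genes, Wnt8b and Wnt7b were listed, and they differed in opposite directions. Wnt7b, a ligand gene of the developing forebrain, had 78.1 FPKM in the Trrap-deleted library, against 44.6 FPKM in the control library (log2 fold change 0.81). The level of Wnt8b was 2.01% of that of Wnt7b in the Trrap-deleted library, against 9.83% in the control library, a ratio 4.88-fold lower. Wls, which encodes the carrier that brings Wnt ligands to the cell surface, was 2.14-fold lower, with 2.42 FPKM in the Trrap-deleted and 5.20 FPKM in the control library. Sfrp1 was the only listed gene among 16 secreted and membrane Wnt antagonists, and Rspo2 the only one among 9 genes of the R-spondin, Lgr and E3 ligase module. Wnt3a, Wnt2b, Rspo1 and Rspo3, further genes of the hem, were not listed.

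Receptor genes were listed in both directions. Of 16 Wnt receptors and co-receptors, Fzd8 had 26.9 FPKM in the Trrap-deleted and 14.6 FPKM in the control library (log2 fold change 0.89). Fzd1 had 31.9 FPKM in the Trrap-deleted and 22.9 FPKM in the control library, a log2 fold change of 0.48 that turned to -0.06 relative to the median of all loci. Fzd3 was lower, with 23.5 FPKM in the Trrap-deleted and 31.8 FPKM in the control library (log2 fold change -0.44). These 3 genes encode Frizzled receptors at levels well above those of Wnt8b and Rspo2.

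Inside the cell, 2 of 32 transduction genes were listed. Pygo1, which encodes a co-activator of beta-catenin, had 6.28 FPKM in the Trrap-deleted and 13.3 FPKM in the control library (log2 fold change -1.09). Nkd1, an inhibitor that binds Dishevelled and is also a target of the pathway, had 19.1 FPKM in the Trrap-deleted and 11.1 FPKM in the control library (log2 fold change 0.78). Of 17 canonical target genes, Nkd1 was higher, while Sp5, a zinc finger factor gene, was lower at 0.223 FPKM in the Trrap-deleted and 0.760 FPKM in the control library. Tnfrsf19, a TNF receptor family gene, was also lower (25.1 FPKM in the Trrap-deleted and 32.6 FPKM in the control library, log2 fold change -0.37). Axin2 and Lef1, widely read as targets, were not listed, nor was the beta-catenin gene Ctnnb1. Celsr1, an atypical cadherin gene, was the only listed gene of 12 for planar cell polarity, at 57.6 FPKM in the Trrap-deleted and 33.9 FPKM in the control library. Over the 113 symbols of all Wnt lists, 13 were listed, 6 higher and 7 lower (5 and 8 relative to the median of all loci). Their median log2 fold change was -0.37, against 0.55 over all 2306 listed genes. Without Wnt8b, Rspo2 and Sfrp1 the counts were 5 higher and 5 lower, with a median of 0.05.

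Hedgehog genes other than Gli1 were also listed both ways. Gas1, which encodes a membrane co-receptor for Sonic hedgehog, had 62.1 FPKM in the Trrap-deleted and 34.9 FPKM in the control library (log2 fold change 0.83). Smo, the gene of the transducer Smoothened, had 21.1 FPKM in the Trrap-deleted and 29.7 FPKM in the control library (log2 fold change -0.49). Gpr161, a ciliary receptor that restrains the pathway in mouse, was lower as well, with 9.82 FPKM in the Trrap-deleted and 17.5 FPKM in the control library. The level of Gli1 was 9.32% of that of Smo in the Trrap-deleted library, against 1.95% in the control library, and 3.17% of that of Gas1, against 1.66%. Shh, Ptch1, Hhip, Gli2 and Gli3 were not listed, so Gli1 stood without the other common readouts of the pathway in the table.

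Among 10 transcription factors and their regulators, 3 genes beside Gli1 were listed. Stk36, the mouse counterpart of the Drosophila kinase gene fused, was 3.29-fold lower, at 7.10 FPKM in the Trrap-deleted and 23.4 FPKM in the control library. Spop, an adaptor that hands Gli proteins to a ubiquitin ligase, had 69.7 FPKM in the Trrap-deleted and 45.7 FPKM in the control library. Prkaca, a catalytic subunit of protein kinase A, had 61.9 FPKM in the Trrap-deleted and 43.1 FPKM in the control library, a log2 fold change of 0.52 that became -0.02 relative to the median of all loci. Disp2, of the Dispatched family, was 2.08-fold higher, at 19.1 FPKM in the Trrap-deleted and 9.17 FPKM in the control library. Of 12 Hedgehog target genes, Gli1 and Olig2 were listed, and Olig2, a basic helix-loop-helix factor of ventral progenitors, was lower (0.111 FPKM in the Trrap-deleted and 0.423 FPKM in the control library). Of 36 symbols in all Hedgehog lists, 9 were listed, 5 higher and 4 lower (4 and 5 relative to the median of all loci). Their median log2 fold change was 0.52, and without Gli1 the counts were 4 and 4 with a median of 0.015. Of 30 genes of transport in the primary cilium, the kinesin gene Kif3b and Ift172 were listed, both with a log2 fold change of 0.41 that became -0.13 relative to the median of all loci.

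**Figure D3:**
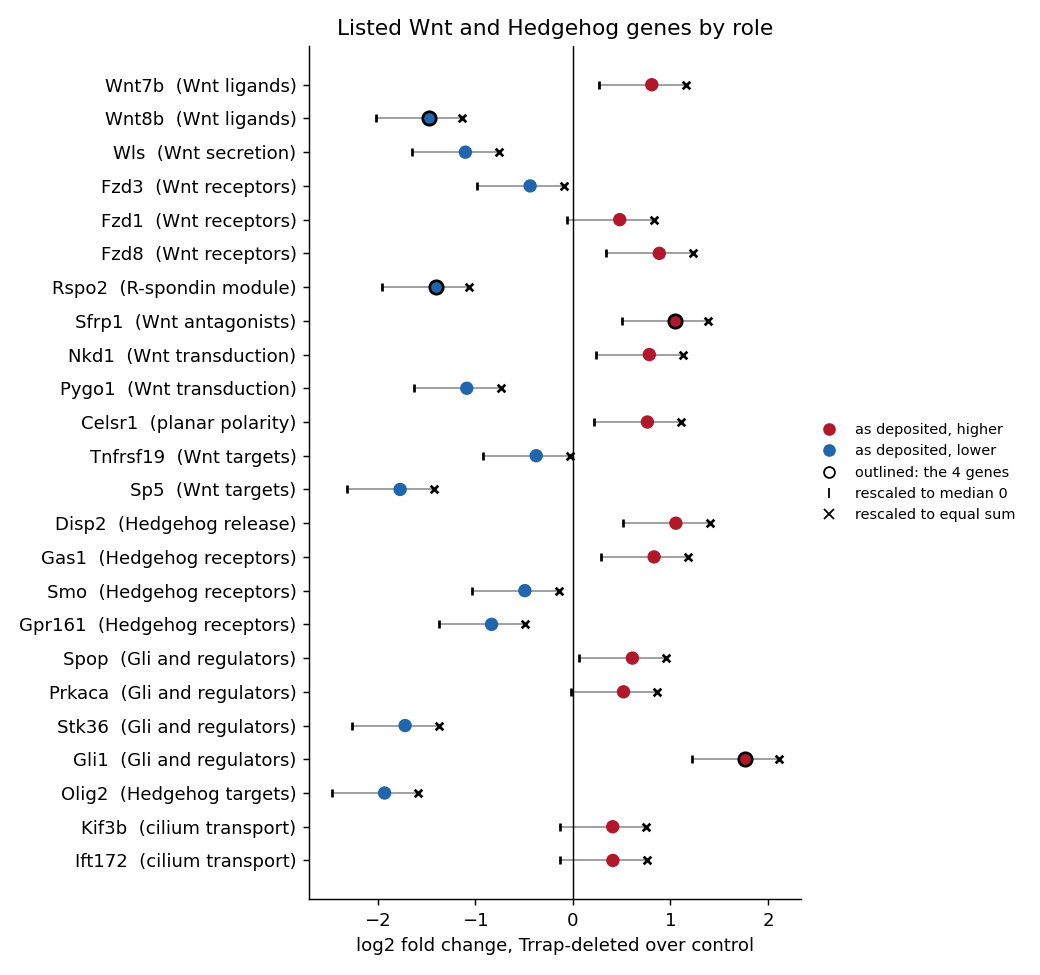
Log2 fold change, Trrap-deleted over control (horizontal axis), of the 24 listed Wnt, Hedgehog and cilium genes, 1 row per gene by role. Dots are the values as deposited, with the 4 genes outlined, and the thin lines run between the values rescaled to a median of 0 (bar) and to equal summed FPKM (cross). Gli1, Sfrp1, Wnt8b and Rspo2 stay on their side of 0 throughout, while Fzd1, Prkaca, Kif3b and Ift172 cross it.

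The 4 loci were also set against their surroundings, a property not used to pick them. No listed locus overlapped any of the 4. Within 1 Mb of Gli1 there were 6 listed loci, 3 higher and 3 lower, among 63 protein-coding genes annotated by RefSeq in such a window. The nearest were Arhgef25, 132.1 kb away (61.0 FPKM in the Trrap-deleted and 48.6 FPKM in the control library), and Naca, 693.8 kb away on the other side (155.6 FPKM in the Trrap-deleted and 250.3 FPKM in the control library). Within 1 Mb of Wnt8b 3 listed loci were higher and 1 lower. Its nearest listed neighbours were both higher, namely the desaturase gene Scd1 at 85.5 kb (log2 fold change 0.70) and Fam178a at 414.6 kb (log2 fold change 0.36). Rspo2 had 2 listed neighbours within 1 Mb, Angpt1 at 316.2 kb (log2 fold change 1.54) and Ttc35 at 306.3 kb (log2 fold change 0.55), both higher while Rspo2 was lower. Sfrp1 had none within 1 Mb. The closest were Ckap2 at 1226 kb (log2 fold change -0.44) and Tacc1 at 1705 kb (log2 fold change 0.46). No gene of the 4 thus shared its direction with every listed neighbour.

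Of the 4 genes, RefSeq's promoter table (GRCm38.p6) held Wnt8b. The 250 bases before its start are shown because Wnt8b is the listed hem ligand. They lie at chr19:44493222-44493471 on GRCm38.p6, plus strand, a different build from the loci above. Capitals mark a CCAAT box, read as ATTGG on this strand, and the homeodomain core TAATTA.
Wnt8b promoter: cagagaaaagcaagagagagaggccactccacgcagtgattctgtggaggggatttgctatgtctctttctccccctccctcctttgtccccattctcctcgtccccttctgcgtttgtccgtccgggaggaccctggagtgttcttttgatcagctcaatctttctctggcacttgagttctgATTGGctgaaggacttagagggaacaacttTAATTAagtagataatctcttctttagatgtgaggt
Searched on both strands, this window held no Gli site GACCACCCA, no Tcf and Lef site CTTTGAA or CTTTGAT, no E-box CACGTG and no TATAAA. Over the 250 bases before each start in 32851 promoters of the table, 0.225% held the Gli site, 4.46% CTTTGAA, 3.21% CTTTGAT, 6.02% CACGTG and 12.4% TATAAA. The CCAAT box and TAATTA were looked for after the sequence had been seen. The first lies 66 to 62 bases before the start and is held by 33.8% of promoters, and the second lies 36 to 31 bases before the start and is held by 4.84%. The window has 48.4% G and C, against a median of 52.4% over all promoters.

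The genes with the most similar pair of levels were found by the distance between their log2 FPKM in both libraries and those of each gene. For Wnt8b these were Cdr2 (distance 0.03), Hey2 (0.04) and Rmst (0.12). Hey2, a Notch effector of radial glia, had 1.60 FPKM in the Trrap-deleted and 4.48 FPKM in the control library. For Rspo2 they were Sh2d4b (distance 0.01), Nxph1 (0.08) and Zfp663 (0.08), for Sfrp1 Rpl35 (0.08), Snap47 (0.09) and Mfap4 (0.15), and for Gli1 Inhba (0.07), Optn (0.10) and Them5 (0.10). Likeness over 2 libraries says only that the levels were close.

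Markers of several cell types and regions differed between the same libraries. As background to the counts, 58.0% of all loci were higher and 42.0% lower. Among the 238 weak loci with a mean FPKM of 1.04 to 2.90, 74.8% were higher and the median log2 fold change was 1.20. Trrap itself was not listed, and the labels could not be checked through it. Of 23 genes of the cortical hem and medial pallium 4 were listed. Wnt8b and Rspo2 are among them, picked with their values known, and the rest differed in opposite directions. Beside Wnt8b and Rspo2 these were Prox1, a dentate gyrus factor gene (0.793 FPKM in the Trrap-deleted and 3.53 FPKM in the control library, at a locus longer than the annotated gene), and Bmp7 (2.69 FPKM in the Trrap-deleted and 1.59 FPKM in the control library), both named after their values were seen. Of 16 ventral telencephalic markers 4 were listed and all 4 were lower (median log2 fold change -2.25), at a summed 2.46 FPKM in the Trrap-deleted and 11.1 FPKM in the control library. Beside Olig2 they were Dlx2 (0.358 FPKM in the Trrap-deleted and 1.95 FPKM in the control library), Dlx5 (0.276 FPKM in the Trrap-deleted and 1.68 FPKM in the control library) and Lhx6 (1.71 FPKM in the Trrap-deleted and 7.06 FPKM in the control library), named after their values were seen. Lhx9 was the only listed gene of 13 for the diencephalon and midbrain (4.72 FPKM in the Trrap-deleted and 13.7 FPKM in the control library), and Nrg3 the only one of 7 for the antihem (4.21 FPKM in the Trrap-deleted and 2.49 FPKM in the control library). Microglial markers were higher in 10 of 10 listed cases of 18, with a median log2 fold change of 1.46. C1qb and Tyrobp were the most abundant of them, and the summed level was 32.4 FPKM in the Trrap-deleted and 12.6 FPKM in the control library. Meningeal and mesenchymal markers were higher in 7 of 8 listed cases of 16, with a median log2 fold change of 2.36. Their summed level was 29.0 FPKM in the Trrap-deleted and 22.9 FPKM in the control library, and 16.8 FPKM in the Trrap-deleted and 3.07 FPKM in the control library without Fn1, the exception, which was lower. Dcn was 3.55-fold higher. Col1a1, named after its value was seen, was 16.6-fold higher over a very low control level. It had 1.37 FPKM in the Trrap-deleted and 0.0825 FPKM in the control library. Y-linked transcripts such as Eif2s3y (32.8 FPKM in the Trrap-deleted and 0.111 FPKM in the control library) also differed. Xist was lower, at 141.95 FPKM in the Trrap-deleted and 313.4 FPKM in the control library. Its locus was 2.33 times as long as annotated, so reads from beside Xist may be part of its values. By these transcripts the sex of the embryos was not matched between the libraries, so sex and genotype cannot be told apart here. Rows at 0 in either library were left out of the lists, so a marker at 0 in either would count as not listed. The part of these marker and sex-linked differences in the values of the 4 genes was not tested.

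**Figure D4:**
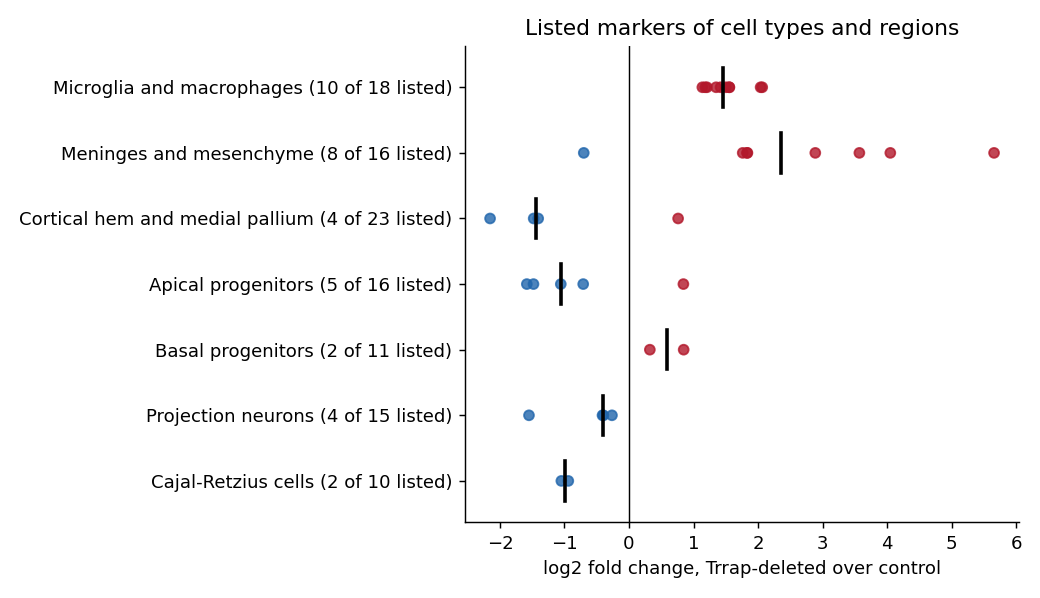
Log2 fold change, Trrap-deleted over control (horizontal axis), of the listed genes of 7 marker lists (rows), 1 point per gene, with the median of each list as a black bar. Microglial points are all above 0. Of the 4 hem and medial pallium points 3 are below 0, and 2 of these, Wnt8b and Rspo2, were picked with their values known.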

How the data were processed

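RNA was isolated from E14.5 cortices, and libraries were prepared from 2.5 µg of total RNA with a TruSeq kit, per the labels' protocols. Reads were mapped with TopHat2 to mm9, per the submitters' processing notes. For counting and strandedness, the software and setting were not given in the sources used here. Antisense reads may be included. The authors deposited 1 table of 2381 rows with all q-values below their threshold of 0.05. Its FPKM columns, a unit read from the Cuffdiff layout, are as deposited by the authors, as are each row's p-value and q-value. Read totals are not given, so depth is unknown and no interval or floor could be set.

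Log2 fold changes were computed as Trrap-deleted over control without a pseudocount (Python 3.11.15, pandas 2.3.3) and matched the deposited log2 column within 1.18e-05. The code was tested on simulated data. Genes were summarised in 27 lists (13 pathway lists and 13 of cell types or regions, 1 of sex-linked transcripts); a symbol with several rows was represented by its most abundant row, and 59 rows with several symbols were left out. The 4 genes and all lists were chosen with earlier results of these data known. Named were the 4 genes, all listed pathway genes, the 3 loci nearest in level, the nearest listed neighbours and the 2 most abundant listed markers of a list, apart from exceptions stated in the text. GENCODE M21 and RefSeq, on another build, gave names, strands, lengths and neighbours. From the list of ventral telencephalic markers 2 genes are not reported here.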

Additional observations from a re-analysis of the deposited data

How the results depend on the processing

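No paired analysis was possible because each genotype had 1 library, and for the same reason no replicate could be left out. With no replicate error and no depth, any shift in a value counts as moved. A pseudocount, a minimum FPKM or a q-value limit cannot turn the direction of a gene, so only the rescalings could. Gli1, Sfrp1, Wnt8b and Rspo2 kept their direction under both rescalings, which rest on the called loci alone. Their log2 fold changes, in that order, were 1.22, 0.50, -2.02 and -1.95 after rescaling to a median of 0, and 2.11, 1.39, -1.13 and -1.06 after rescaling to equal summed FPKM. They were 1.61, 1.04, -1.42 and -1.34 with a pseudocount of 0.1, and 0.91, 1.03, -1.06 and -0.93 with a pseudocount of 1. Where the higher library had to reach 5 FPKM, only Sfrp1 of the 4 was left, and 4 Wnt genes in place of 7 were lower. At 2-fold or more, 1 Wnt gene was higher and 5 were lower, and 2 Hedgehog genes were higher and 2 lower. Of all loci, 906 were higher and 647 lower at a q-value under 0.01, against 1382 and 999 as deposited, and 606 and 325 at 2-fold or more. Of the other 20 pathway genes 4 changed direction, all on rescaling to a median of 0, namely Fzd1 (-0.062), Prkaca (-0.023), Kif3b (-0.13) and Ift172 (-0.13).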

Other observations

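Neural marker lists not described above were listed as follows, with summed FPKM of their listed genes. Of 16 apical progenitor genes, 1 was higher (Slc1a3) and 4 lower (Vim the most abundant of these), at 456.1 FPKM in the Trrap-deleted and 701.6 FPKM in the control library. Of 11 basal progenitor genes, Neurog2 and Mfap4 were higher, although Neurog2 was lower relative to the median of all loci (-0.22) and both have loci far longer than annotated. Of 15 projection neuron genes 4 were lower, with Neurod6 and Stmn2 the most abundant (384.3 FPKM in the Trrap-deleted and 563.1 FPKM in the control library), and Neurod6 turned to 0.08 on rescaling to equal summed FPKM. Of 10 Cajal-Retzius genes, Cxcr4 and Nhlh2 were lower (17.9 FPKM in the Trrap-deleted and 36.0 FPKM in the control library). These cells arise in part at the hem.

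Of 15 endothelial and pericyte genes, Pdgfrb and Cspg4 were higher (4.24 FPKM in the Trrap-deleted and 2.07 FPKM in the control library). Hbb-y, the only listed gene of 11 for erythroid cells, had 157.1 FPKM in the Trrap-deleted and 96.8 FPKM in the control library. Ttr, the only listed gene of 10 for the choroid plexus, had 3.31 FPKM in the Trrap-deleted and 0.104 FPKM in the control library, at a locus 12.9 times as long as annotated. Of 5 sex-linked transcripts, 3 were higher and Xist was lower (141.95 FPKM in the Trrap-deleted and 313.4 FPKM in the control library).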
